A study of Homo sapiens with 36 samples.

Results

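POSR2 and POSR1 are 2 cell populations of the line SUM-229PE that the labels give as separate subpopulations, and their H3K27ac ChIP-seq profiles were compared over the same set of genomic regions. The comparison rests on 4 of the 36 samples of the series: the count columns named POSR2 (2 libraries) and POSR1 (2 libraries) in the table that also holds POS under DMSO (3 libraries). SUM-229PE is an established triple-negative breast cancer line grown from a pleural effusion. Its subpopulations, among them POS and NEG, were sorted by the surface proteins EpCAM and CD49f, and the series asks how they adapt to the MEK inhibitor trametinib.

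POSR2 and POSR1 carry no genotype, drug, dose or time in the labels, which give only the subpopulation name and the low passage they share with every other sample. Whether either was held in trametinib, how they were derived and whether each is 1 clone is not given in the sources used here. POS under DMSO, the vehicle, served in the same fit for the spread between libraries and for values beside the POSR ones. In other tables, POS was measured after 14 days in 10 nM trametinib against day 0, after 24 hours in 30 nM trametinib against DMSO, and against NEG under DMSO.

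H3K27ac is an acetyl group on lysine 27 of histone H3, laid down by the acetyltransferases p300 and CBP and removed by histone deacetylases. It marks active promoters and enhancers, and clusters of acetylated regions often lie around genes that a cell type transcribes strongly. MEK is the kinase that activates ERK, and ERK signalling feeds AP-1, a family of transcription factors that includes JUNB and that binds many enhancers of epithelial cancer cells.

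The POSR2 libraries held 8362933 and 7714203 reads in regions, against 7236456 and 8908747 reads in the POSR1 libraries, and the POS libraries held between 4537976 and 8737463. Across the tested regions, log2 levels of the POSR2 libraries correlated with each other at r = 0.982 and those of the POSR1 libraries at r = 0.981. Between a POSR2 and a POSR1 library r lay between 0.878 and 0.881, and with the POS libraries it lay between 0.783 and 0.809 for POSR2 and between 0.803 and 0.826 for POSR1. These are correlations across regions within one table, not across independent replicates. The labels do not tell whether replicates came from separate cultures, and every p-value below is against the spread between these libraries, which may be technical. The series has input libraries, but the count tables hold no input column and the inputs were not used here. More copies of a stretch of DNA and more acetylation per copy therefore cannot be told apart anywhere below. No region is tied to a gene here, and the populations were not checked against cell type markers for that reason.

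POSR2 and POSR1 differed in H3K27ac at a large share of their regions, and in both directions. Of 53549 regions, 53524 passed the filter on low counts, and 21671 of these passed the test between POSR2 and POSR1, which is 40.5% of the regions tested (edgeR's quasi-likelihood test, p-values adjusted by Benjamini-Hochberg, threshold 0.05). POSR2 was higher at 11337 regions (21.2%) and lower at 10334 (19.3%). At 2-fold or more, it was higher at 5344 regions (9.98%) and lower at 4119 (7.70%). The 2 POSR2 values and the 2 POSR1 values did not overlap at 21632 of the 21671 regions called (99.8%), which the call itself nearly fixes and which is no further support for it. Of all tested regions, 73.9% showed no overlap in either direction.

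Over all tested regions, large differences counted more gains than losses in POSR2. A 4-fold difference was reached by 1055 regions called higher and 543 called lower, and an 8-fold difference by 194 and 50. The median log2 fold change of all tested regions was 0.003, with a 5th percentile of -1.24 and a 95th percentile of 1.44. The smallest fold change that passed the test had an absolute log2 size of 0.342, and no smaller difference was called in this fit. Calls were most frequent at middle levels, with regions split by mean level into 5 classes of equal size. In the weakest class 27.8% were called, in the middle class 51.3% and in the strongest 31.5%. The balance of directions turned with level. In the weakest class 1792 regions were called higher in POSR2 and 1187 lower, and in the strongest class 1333 were called higher and 2044 lower. DESeq2 called 7338 regions higher and 7381 lower in POSR2, of which 7328 and 7260 were called in the same direction by edgeR, so its counts were nearly even between the directions.

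Regions that differed by 2-fold were fewest in the strongest of the 5 level classes. From the weakest class to the strongest, 1615, 1462, 1232, 790 and 245 regions were 2-fold higher in POSR2. The numbers 2-fold lower were 1028, 1071, 934, 737 and 349. Median levels of POS under DMSO lay between those of the POSR populations. These regions were chosen for a difference between POSR2 and POSR1, which favours a POS median between them. Regions at least 2-fold higher in POSR2 had median levels of 8.49 CPM in POSR2, 2.85 CPM in POSR1 and 5.35 CPM in POS, where CPM is the count set relative to the scaled library size. Regions at least 2-fold lower had medians of 3.44 CPM in POSR2, 9.63 CPM in POSR1 and 6.85 CPM in POS. Over all tested regions the medians were 9.04 CPM in POSR2, 8.69 CPM in POSR1 and 9.42 CPM in POS. The regions 2-fold higher had a median log2 fold change over POS of 0.73 in POSR2 and -0.81 in POSR1. Those 2-fold lower had -0.90 in POSR2 and 0.54 in POSR1. Each region bears the name of the library whose peak it was built from. Of the regions 2-fold higher in POSR2, 58.0% were named for a POSR2 peak, 1.16% for a POSR1 peak and 40.8% for a POS peak. Among those 2-fold lower, 1.72% were named for a POSR2 peak, 54.4% for a POSR1 peak and 43.9% for a POS peak. Over all tested regions these shares were 19.9%, 18.7% and 61.4%. The peaks and the counts come from the same libraries. The split of names is therefore nearly set by the choice of these regions and is no further support for the difference.

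The largest gains in POSR2 among regions of at least median level (9.02 CPM) included 6 on chromosome 7 out of the 12 named, and the 12 lay at least 500 kb apart. Chromosome 7 as a whole did not pass the test: it had 2928 of the 53524 tested regions, 23.4% of them called higher, and a summed log2 fold change of -0.02 ± 0.10 (adjusted p = 0.983). At chr7:70193932-70194933 (hg19, as are all positions here), H3K27ac was 35.1 and 35.3 CPM in POSR2, 0.702 and 0.119 CPM in POSR1, and 0.362, 1.96 and 0.757 CPM in POS. Both POSR2 libraries stood far above all others, and POSR1 and POS both lay near the bottom of the scale. The log2 fold change of POSR2 over POSR1 was 6.44 ± 0.29 (SE, n = 2 each, adjusted p = 4.67e-106), and all 3 tested neighbours within 50 kb were also called higher, by 2.40 to 4.94.

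A second region on chromosome 7, chr7:29388939-29389940, had 25.6 and 26.5 CPM in POSR2, 1.12 and 0.358 CPM in POSR1, and 1.45, 4.51 and 2.27 CPM in POS. Again the POSR2 libraries stood alone, and all 5 tested neighbours within 50 kb were called higher too. POSR2 over POSR1 was 5.16 ± 0.28 on the log2 scale there. The region chr10:36560424-36561425 had 37.3 and 47.8 CPM in POSR2, 2.25 and 0.955 CPM in POSR1, and 1.33, 0.392 and 0.908 CPM in POS, a log2 fold change of 4.76 ± 0.21.

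Not all gains were on ground that was weak in POS. The region chr16:79104794-79105795 had 25.4 and 18.4 CPM in POSR2, 0.843 and 0.836 CPM in POSR1, and 15.3, 13.1 and 13.5 CPM in POS. Here POSR1 was the population that stood apart: it was lower than POS by a log2 fold change of -4.04 ± 0.28, while POSR2 over POS was 0.64 ± 0.14. The region chr7:158189553-158190554 had the same order, with 19.0 and 18.8 CPM in POSR2, 0.421 and 1.43 CPM in POSR1, and 14.8, 13.1 and 12.0 CPM in POS. At chr7:7593007-7594008, POS lay between the others, with 21.4 and 18.7 CPM in POSR2, 1.83 and 0.239 CPM in POSR1, and 6.27, 9.03 and 6.35 CPM in POS.

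The 6 other named gains had log2 fold changes between 4.00 and 4.58. They lay at chr7:67218846-67219847, chr8:135852517-135853518, chr15:58684292-58685293, chr7:2477251-2478252, chr16:34832865-34833866 and chr15:96725178-96726179. Over POS, POSR2 was higher at all 12 named gains, and POSR1 was lower at 5 of them and higher at 1. The choice of these regions by POSR2 over POSR1 favours POSR2 above POS and POSR1 below it. These counts are therefore a description. The gain at chr15:96725178-96726179 was local: none of its 6 tested neighbours within 50 kb was called higher, and 3 were called lower.

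**Figure D1:**
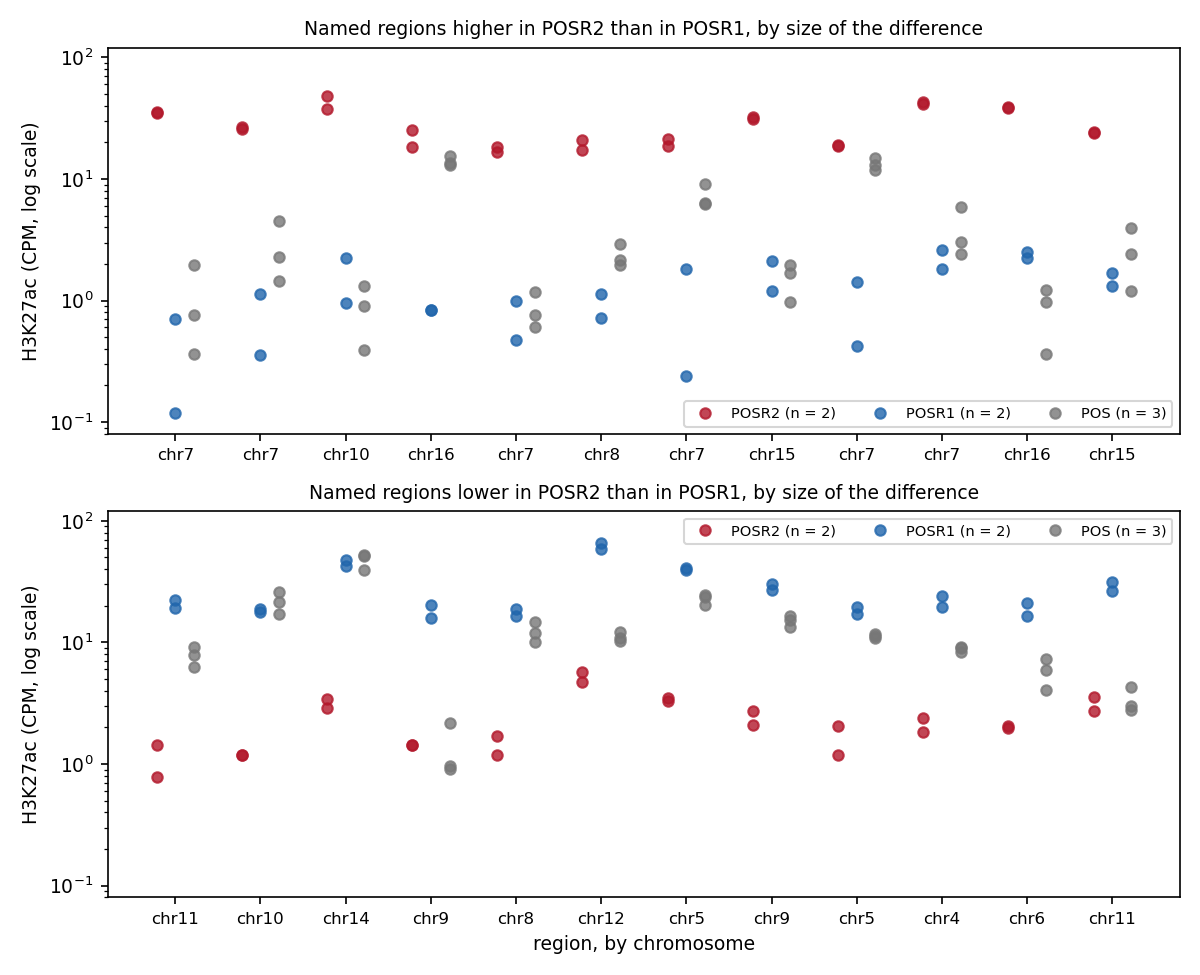
H3K27ac level in CPM (log scale) of the 12 regions named as higher (top) and the 12 named as lower (bottom) in POSR2 than in POSR1, in order of the size of the difference. Each point is 1 library (POSR2 n = 2, POSR1 n = 2, POS n = 3). The POSR2 and POSR1 points do not overlap at any of the 24 regions, which was a condition for naming them. The POS points sit near either population depending on the region.

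The 12 named losses in POSR2 were spread over 9 chromosomes, and at most of these regions POSR2 was also below POS. The region chr11:75741418-75742419 had the largest named loss, with 1.44 and 0.788 CPM in POSR2, 19.2 and 22.3 CPM in POSR1, and 7.83, 6.28 and 9.23 CPM in POS. Each population kept to its own range, and POSR2 was below POSR1 by a log2 fold change of -4.19 ± 0.26 (adjusted p = 4.42e-55). The strongest region of POS among these losses was chr14:29708729-29709730, with 2.87 and 3.42 CPM in POSR2, 42.3 and 47.5 CPM in POSR1, and 51.6, 39.2 and 52.5 CPM in POS. POSR1 and POS overlapped there, and POSR2 over POSR1 was -3.84 ± 0.23 on the log2 scale.

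A loss of the same kind was seen at chr10:134480682-134481683, which had 1.20 and 1.18 CPM in POSR2, 17.8 and 18.7 CPM in POSR1, and 26.0, 17.1 and 21.5 CPM in POS. By contrast, chr12:25852269-25853270 was high in POSR1 alone: it had 5.74 and 4.73 CPM in POSR2, 66.3 and 59.0 CPM in POSR1, and 10.2, 12.2 and 10.9 CPM in POS. POSR1 was above POS there by a log2 fold change of 2.51 ± 0.15, and POSR2 was below POS by -1.06 ± 0.21. The region chr9:12065146-12066147 was likewise high in POSR1 alone, with 1.44 and 1.45 CPM in POSR2, 16.0 and 20.4 CPM in POSR1, and 0.964, 2.16 and 0.908 CPM in POS.

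The 7 other named losses had log2 fold changes between -3.59 and -3.21 and lay at chr8:22907373-22908374, chr5:149744-150745, chr9:113559299-113560300, chr5:142119368-142120369, chr4:91365996-91366997, chr6:138552280-138553281 and chr11:36496001-36497002. Against POS, POSR2 was lower at 10 of the 12 named losses. POSR1 was higher than POS at 10 of the 12, the exceptions being the regions on chromosomes 10 and 14 described above. The choice of these regions favours POSR2 below POS and POSR1 above it, so these counts too are a description.

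In 3 regions, chosen after their values were seen, both POSR1 libraries had no read. The region chr18:76398700-76399701 had 4.19 and 2.76 CPM in POSR2, and 2.17, 0.981 and 1.97 CPM in POS. Against a floor of 3 reads over the POSR1 group, equal to 0.194 CPM, POSR2 was at least 17.9-fold higher there. At chr1:206508809-206509810, POSR2 had 2.63 and 3.68 CPM, and POS had 0.482, 0 and 0.908 CPM, which made POSR2 at least 16.3-fold higher than POSR1. In the third, chr18:73336769-73337770, POSR2 had only 0.957 and 0.657 CPM while POS had 6.39, 4.32 and 6.36 CPM, so both POSR populations were low. No tested region was at 0 in both POSR2 libraries. Floors and standard errors cover counting error and the spread between libraries of reads amplified by PCR, which are not independent molecules.

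Differences between POSR2 and POSR1 ran in stretches along the chromosomes. Between neighbouring tested regions less than 5 kb apart, log2 fold changes correlated at r = 0.649 over 5730 pairs. The correlation was 0.41 at 5 to 50 kb, 0.271 at 50 to 500 kb and 0.087 beyond 500 kb (484 pairs). Where both neighbours were called, they had the same direction in 95.4% of pairs under 5 kb apart, in 84.6% at 5 to 50 kb, in 72.9% at 50 to 500 kb and in 50.0% of the 72 pairs beyond 500 kb. Neighbouring regions share libraries and, at short distance, the same acetylated domain, so they are not independent.

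Runs of consecutive regions called in one direction reached 38 regions for POSR2 gains and 27 for POSR2 losses. There were 261 runs of at least 5 regions higher in POSR2, which held 14.8% of the regions called higher, and 255 runs of at least 5 lower regions, which held 16.8% of those called lower. Runs were chosen by the calls themselves, so their values are a description.

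The longest run of gains spanned 897 kb at chr6:35512598-36409609. Summed over its 38 regions, H3K27ac was 2685 and 2699 CPM in POSR2, 1304 and 1318 CPM in POSR1, and 1211, 1098 and 1165 CPM in POS. POSR1 thus lay slightly above POS, and POSR2 stood apart from both. The median log2 fold change of its regions was 1.08, and the lowest and highest were 0.56 and 3.12. Its strongest difference was at chr6:36336737-36337738, with 34.8 and 36.3 CPM in POSR2, 3.51 and 4.54 CPM in POSR1, and 2.53, 5.49 and 1.97 CPM in POS.

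A loss of another shape lay at chr12:25428974-25993286, a run of 23 regions over 564.3 kb. Its regions summed to 1609 and 1620 CPM in POSR2, 5219 and 5107 CPM in POSR1, and 580.9, 542.9 and 561.6 CPM in POS. Both POSR populations were therefore above POS over this stretch as a whole, POSR1 by far the more, and the named loss at chr12:25852269-25853270 lies inside it. The median log2 fold change of POSR2 over POSR1 in the run was -1.70. Regions just before the run were also higher in both POSR populations than in POS, as the plot of levels along the run shows.

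**Figure D2:**
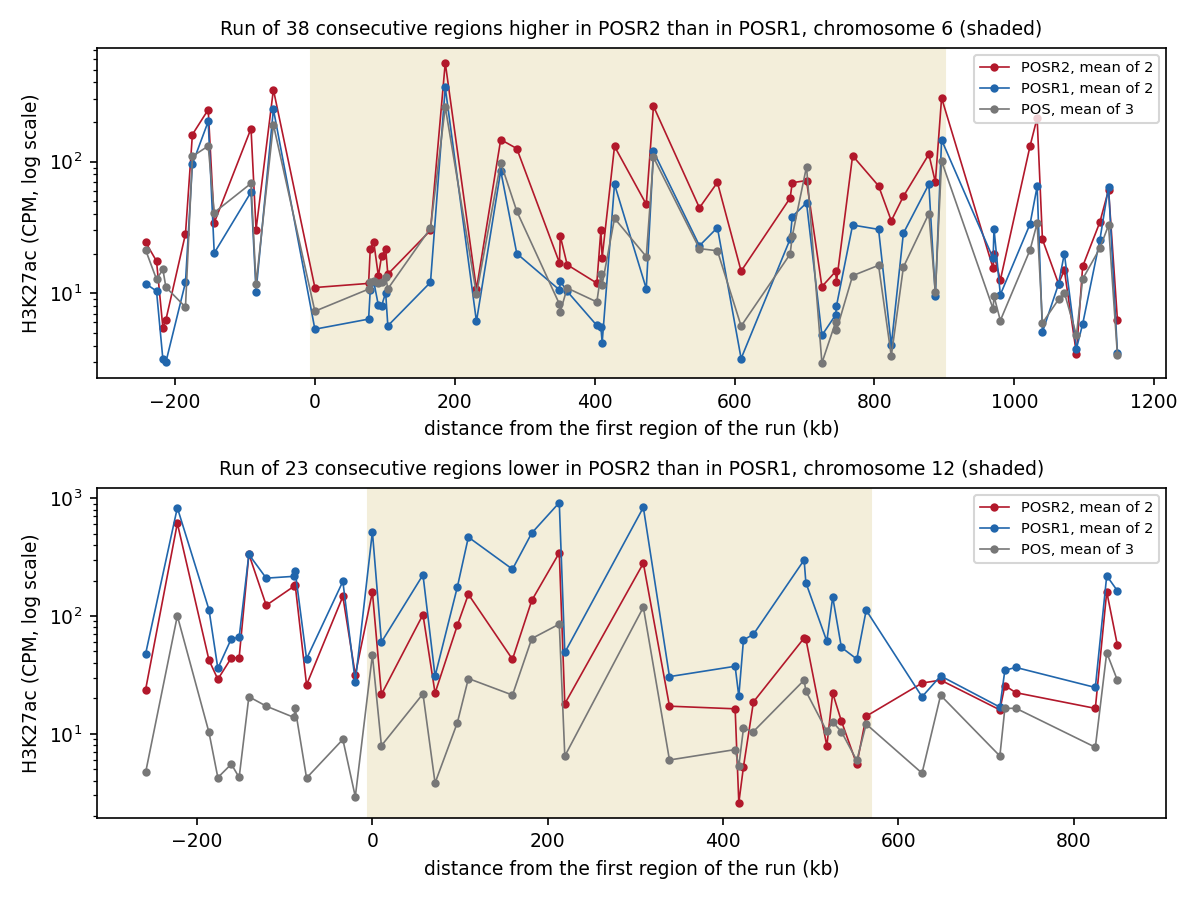
H3K27ac level in CPM (log scale) against distance in kb from the first region of the run, for the longest run of regions higher in POSR2 (chromosome 6, top) and a run of 23 regions lower in POSR2 (chromosome 12, bottom). Each point is the mean of 2 POSR2, 2 POSR1 or 3 POS libraries, and the shading marks the run. In the chromosome 6 run POSR2 lies above POSR1 at every region and above POS at most, and POSR1 lies on either side of POS. On chromosome 12 the order is POSR1, POSR2 and POS at most regions.

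The other long runs of gains were chr3:40545844-41201468 (16 regions, median log2 fold change 1.73), chr22:33119484-33835231 (15 regions, 1.33), chr3:21371152-22201222 (15 regions, 2.23) and chr16:78850768-79793274 (14 regions, 2.38). In the last of these the median level was 11.6 CPM in POSR2, 1.97 CPM in POSR1 and 9.71 CPM in POS, so POSR1 was the low population, and the named region chr16:79104794-79105795 lies in it. In the second run on chromosome 3 the medians were 4.35 CPM in POSR2, 0.720 CPM in POSR1 and 0.987 CPM in POS, so there POSR2 was the high one.

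Runs of losses were longest at chr3:160983856-162109611 (27 regions, median log2 fold change -0.98) and chr14:84886539-85994842 (26 regions, -1.23). The first summed to 411.7 and 420.1 CPM in POSR2, 777.6 and 830.2 CPM in POSR1, and 331.0, 330.2 and 322.3 CPM in POS, which placed POSR1 above the others. The run on chromosome 14 summed to 364.3 and 389.2 CPM in POSR2, 672.7 and 734.9 CPM in POSR1, and 779.9, 607.1 and 725.6 CPM in POS, which placed POSR2 below the others. Further runs lay at chr3:163527167-164973462 (21 regions, -1.04) and chr5:24238256-25191452 (20 regions, -1.66).

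Summed over windows of 5 Mb, more windows were lower than higher in POSR2 with the scaling used here, and more were higher than lower with libraries scaled by total counts. Of 585 windows with at least 10 tested regions, POSR2 was higher in 47 (8.03%) on 20 chromosomes and lower in 92 (15.7%) on 16 chromosomes (edgeR's quasi-likelihood test, Benjamini-Hochberg adjusted over windows). Windows called lower held 28.8% of the regions called lower (2976), and also 649 regions called higher. Windows called higher held 11.1% of those called higher (1256), and also 191 called lower. Windows were called on the sums of these same regions, which favours calls in the window's direction, here and in the windows named below. The share of all tested regions in these windows was not computed. The median log2 fold change was 0.31 in the windows called higher and -0.39 in those called lower, and none below 0.23 in absolute size was called. Window counts moved with the libraries used: they were 17 higher and 38 lower without POSR2 replicate 1, 20 and 71 without POSR2 replicate 2, 16 and 63 without POSR1 replicate 1, 18 and 39 without POSR1 replicate 2, and 149 and 223 with only the 4 POSR libraries in the fit. Of the windows called, 33.8% were higher in POSR2, and 55.0% (235 higher and 192 lower) under total counts.

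**Figure D3:**
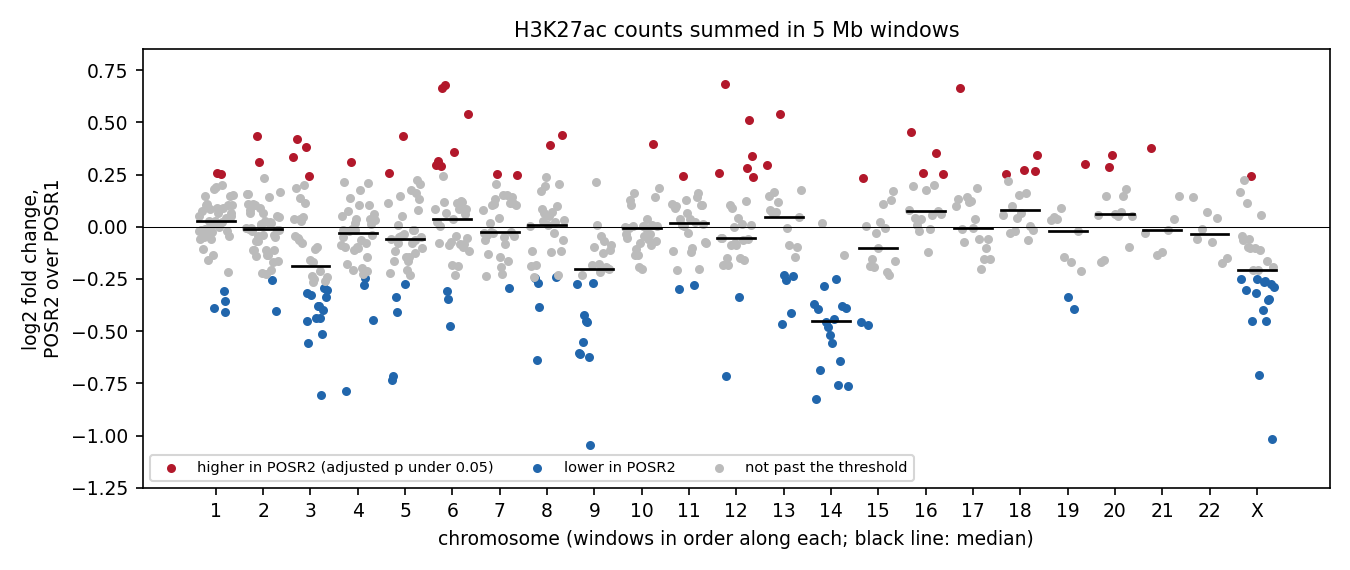
Log2 fold change of POSR2 over POSR1 for H3K27ac counts summed in 5 Mb windows, by chromosome and in order along each. Each point is 1 of 585 windows, coloured by the edgeR call, and the black line is the chromosome's median. Chromosome 14 has 17 of 18 windows below 0, and chromosomes 3, 6 and 9 and X hold clusters of windows called one way.

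Gains at this scale were led by chr12:20000001-25000000 and 2 windows on chromosome 6. The chromosome 12 window summed to 386.9 and 401.8 CPM in POSR2, 252.5 and 239.3 CPM in POSR1, and 270.6, 264.9 and 259.5 CPM in POS, a log2 fold change of 0.68 ± 0.09 with 12 of its 32 regions called higher and 4 lower. The window chr6:50000001-55000000 had 3804 and 3821 CPM in POSR2, 2340 and 2422 CPM in POSR1, and 2467, 2104 and 2322 CPM in POS. There 73 of 103 regions were called higher and 2 lower, so the shift ran through most of the window. Another window of this chromosome, chr6:35000001-40000000, holds the run of 38 regions and had a log2 fold change of 0.66 ± 0.11, with 96 of 152 regions called higher and 8 lower.

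At chr17:10000001-15000000 POSR1 was the population that differed from POS. It had 718.2 and 734.5 CPM in POSR2, 470.3 and 447.5 CPM in POSR1, and 731.1, 647.3 and 696.3 CPM in POS. The log2 fold change over POS was 0.07 in POSR2 and -0.59 in POSR1. The window chr6:165000001-170000000 had the same form, with -0.01 in POSR2 and -0.54 in POSR1 over POS. In chr13:55000001-60000000, a window of 12 regions, both POSR populations were far above POS: 89.98 and 90.67 CPM in POSR2, 60.4 and 63.8 CPM in POSR1, and 14.9, 14.9 and 12.3 CPM in POS.

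Losses at this scale reached a log2 fold change of -1.04. The window chr9:65000001-70000000 had 264.0 and 273.8 CPM in POSR2, 548.8 and 558.9 CPM in POSR1, and 305.5, 270.4 and 296.1 CPM in POS, with an SE of 0.09 on that fold change and 22 of 35 regions called lower. POSR2 lay at or just below the low end of the POS range there, and POSR1 lay above that range. The window chrX:140000001-145000000 had 343.4 and 339.3 CPM in POSR2, 674.0 and 704.5 CPM in POSR1, and 58.9, 77.1 and 65.5 CPM in POS. Both POSR populations exceeded POS, with log2 fold changes of 2.36 in POSR2 and 3.37 in POSR1, and POSR2 over POSR1 was -1.01 ± 0.09.

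On chromosome 14, the window chr14:25000001-30000000 had 406.0 and 434.0 CPM in POSR2, 729.4 and 759.2 CPM in POSR1, and 997.3, 840.2 and 975.8 CPM in POS. It was thus lower in both POSR populations than in POS, and lowest in POSR2. The named windows chr3:160000001-165000000, chr4:30000001-35000000 and chr14:105000001-110000000 had log2 fold changes of -0.81, -0.79 and -0.76. Of their 84, 56 and 34 tested regions, 64, 37 and 22 were called lower and 4, 0 and 0 higher. Over all tested regions 19.3% were called lower and 21.2% higher. The windows were called on the sums of these same regions, which favours such counts.

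With the scaling and libraries used here, chromosome 14 was the one chromosome whose summed H3K27ac passed the test, and it was lower in POSR2. Other settings called more chromosomes: 14 were higher and 6 lower under scaling by total counts, and 3 were higher and 5 lower with only the 4 POSR libraries in the fit. Its regions summed to 22212 and 22476 CPM in POSR2, 30295 and 31564 CPM in POSR1, and 30596, 25854 and 28486 CPM in POS. The POSR2 libraries lay below all 5 others, while the POSR1 and POS libraries overlapped. The log2 fold change of POSR2 over POSR1 was -0.47 ± 0.11 (SE, n = 2 each, adjusted p = 0.000723), POSR2 over POS was -0.34 ± 0.10 (adjusted p = 0.00666) and POSR1 over POS was 0.13 ± 0.10 (adjusted p = 0.313). Chromosome 14 took 2.22% of counts in each POSR2 library, against 2.98% and 2.97% in POSR1, and between 2.90% and 2.93% in POS.

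The lower level ran along the whole of chromosome 14 rather than at a few regions. Of its 1635 tested regions, 688 (42.1%) were called lower and 138 (8.44%) higher, and 73.6% had a log2 fold change below 0. Of its 18 windows, 16 were called lower, and the range was -0.83 to 0.02 with a median of -0.45. Sorted by level, the median log2 fold change was -0.36 in the weakest of the 5 level classes and -0.49 in the strongest, against 0.10 and -0.07 on all other chromosomes. In the strongest class 91.2% of the chromosome 14 regions were below 0, against 58.1% elsewhere. The call was lost without POSR2 replicate 1, with a log2 fold change of -0.46 and an adjusted p of 0.129, and without POSR1 replicate 2, with -0.44 and an adjusted p of 0.122. It held without POSR2 replicate 2 and without POSR1 replicate 1, and the direction was the same without each of the 4 libraries in turn.

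**Figure D4:**
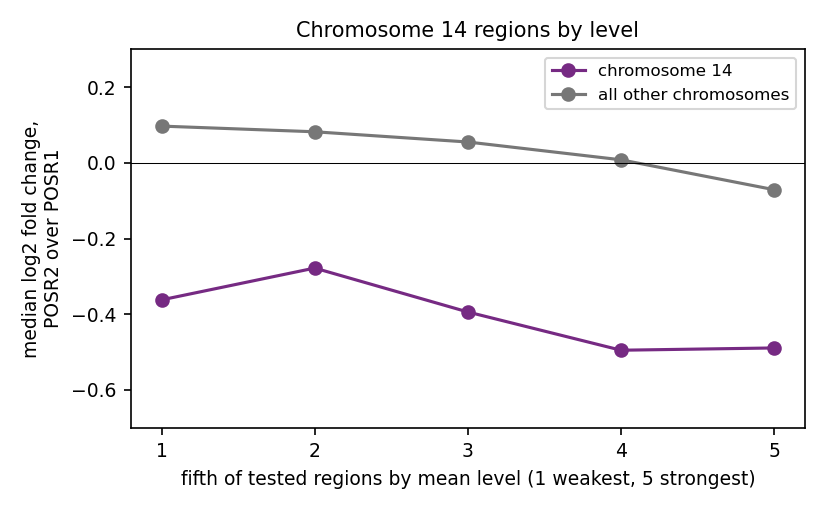
Median log2 fold change of POSR2 over POSR1 in each of 5 equal classes of tested regions by mean level (1 weakest, 5 strongest), for regions on chromosome 14 and on all other chromosomes. The chromosome 14 medians lie between -0.50 and -0.28 in every class, and those of the other chromosomes between -0.07 and 0.10.

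Among the 23 chromosomes tested, none was called higher in POSR2 (0%) and 1 was called lower (4.35%) by edgeR's quasi-likelihood test. At an unadjusted p under 0.05, 0 were higher and 3 were lower. Chromosomes 3 and 9 were the others of these, with log2 fold changes of -0.22 and -0.22 and adjusted p-values of 0.289 for both.

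Windows called lower on chromosomes 3, 9 and X lay mainly in parts of them, which were chosen after their values were seen. Below 45 Mb on chromosome 9, 8 of 9 windows were called lower, and of 592 regions 261 (44.1%) were called lower and 50 (8.45%) higher. Above 65 Mb on the same chromosome, 2 of 16 windows were called lower, and of 1612 regions 364 (22.6%) were called lower and 285 (17.7%) higher. Above 100 Mb on chromosome 3, 11 of 20 windows and 38.5% of regions were called lower, whereas below 100 Mb 3 windows were called lower and 4 higher. On the X chromosome, 9 of 11 windows above 100 Mb were called lower, against 6 of 20 below it. No test of these parts against the rest was made.

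POSR2 and POSR1 were next set beside H3K27ac changes of POS in tables that share no POSR library. Regions were paired across tables where they overlapped by at least 50% of both, so only regions that were also found in the other table have a value. The POS libraries under DMSO entered the POSR2 and POSR1 fit only for the spread and do not enter its fold change.

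Over 50% of the paired regions at least 2-fold higher in POSR2 were higher in POS after 14 days of trametinib, and over 50% of those at least 2-fold lower were lower after 14 days. Smaller gains in POSR2 did not reach that share: where the log2 fold change lay between 0 and 0.5, 36.4% were called higher at day 14 and 37.8% lower, and between 0.5 and 1, 44.5% were called higher and 32.4% lower. Of the 2669 paired regions at least 2-fold higher in POSR2, 54.7% were called higher at day 14 than at day 0 and 24.2% lower. Of the 1935 at least 2-fold lower in POSR2, 14.7% were called higher at day 14 and 68.7% lower. Over all 30996 paired regions those shares were 32.6% and 43.5%, and in the day 14 table as a whole 39.5% of regions were called higher and 38.2% lower. Drug and time in culture cannot be told apart in the day 14 comparison.

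The shares changed step by step with the size of the POSR difference. Where POSR2 was over 4-fold higher, 59.4% of paired regions were called higher at day 14 and 22.1% lower. Where POSR2 was over 4-fold lower, 10.1% were called higher and 77.4% lower. Among regions 2-fold lower in POSR2, the share called lower at day 14 lay between 59.9% in the weakest and 77.4% in the strongest level class, against 35.7% to 48.2% for all paired regions of the same classes. Among regions 2-fold higher in POSR2, the share called higher at day 14 ran the other way with level, at 61.3% in the weakest class, 48.5% in the second strongest and 44.1% in the strongest, where 37.2% were called lower. Across the paired regions, log2 fold changes of POSR2 over POSR1 and of POS day 14 over day 0 correlated at r = 0.31, and within single chromosomes at 0.212 (chromosome 16) to 0.380 (chromosome 13). For each population alone against POS under DMSO, r with the day 14 change was 0.53 for POSR2 and 0.28 for POSR1. These correlations are across regions, which are not independent.

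Few named regions were paired in the day 14 table. Of the 8 named losses paired there, 7 were called lower at day 14 and 0 higher, and of the 3 named gains paired there, 2 were called higher and 0 lower. Over all paired regions 43.5% were called lower and 32.6% higher. Where POSR2 was over 4-fold lower, 77.4% were called lower, and where it was over 4-fold higher, 59.4% were called higher. The named regions are too few to differ clearly from these classes. At chr14:29708729-29709730 the log2 fold change of POS day 14 over day 0 was -4.34 ± 0.22, at chr10:134480682-134481683 it was -4.01 ± 0.28 and at chr5:149744-150745 it was -3.79 ± 0.28. The gain at chr16:79104794-79105795 was 1.50 ± 0.18 at day 14. The exception among the paired losses was chr11:36496001-36497002, at 0.42 ± 0.30 (adjusted p = 0.190).

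After 24 hours of trametinib the same direction was seen at a smaller share of regions, in a comparison that also called fewer regions in all. Of 3355 paired regions 2-fold higher in POSR2, 41.8% were called higher in treated POS than in DMSO and 18.1% lower. Of 2566 regions 2-fold lower, 16.8% were called higher and 46.3% lower, while all 40964 paired regions gave 24.7% and 30.1%. In the table of acute treatment as a whole, 26.7% were called higher and 26.0% lower, against 39.5% and 38.2% in the day 14 table. The correlation with the POSR difference was 0.216, between 0.166 and 0.293 within single chromosomes. Of the 11 named losses paired in this table, 10 were called lower after 24 hours and 1 higher.

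The difference between POS and NEG under DMSO showed little such order over all paired regions. Of 2890 paired regions 2-fold higher in POSR2, 55.8% were called higher in POS than in NEG and 26.2% lower. Of 2486 regions 2-fold lower, 51.0% were called higher and 27.7% lower, and all 38352 paired regions gave 53.8% and 20.8%. In that table as a whole, 38.6% of regions were called higher and 38.0% lower. The correlation with the POSR difference was 0.041. In both 2-fold classes the share called lower in POS was thus above that of all paired regions. From the weakest level class to the strongest, regions 2-fold higher in POSR2 were called higher in POS in 42.7%, 49.6%, 58.8%, 67.5% and 68.4%. Regions 2-fold lower were called higher in POS in 37.0%, 40.8%, 52.0%, 60.4% and 71.0%. That share was thus larger for the gains in each class except the strongest.

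**Figure D5:**
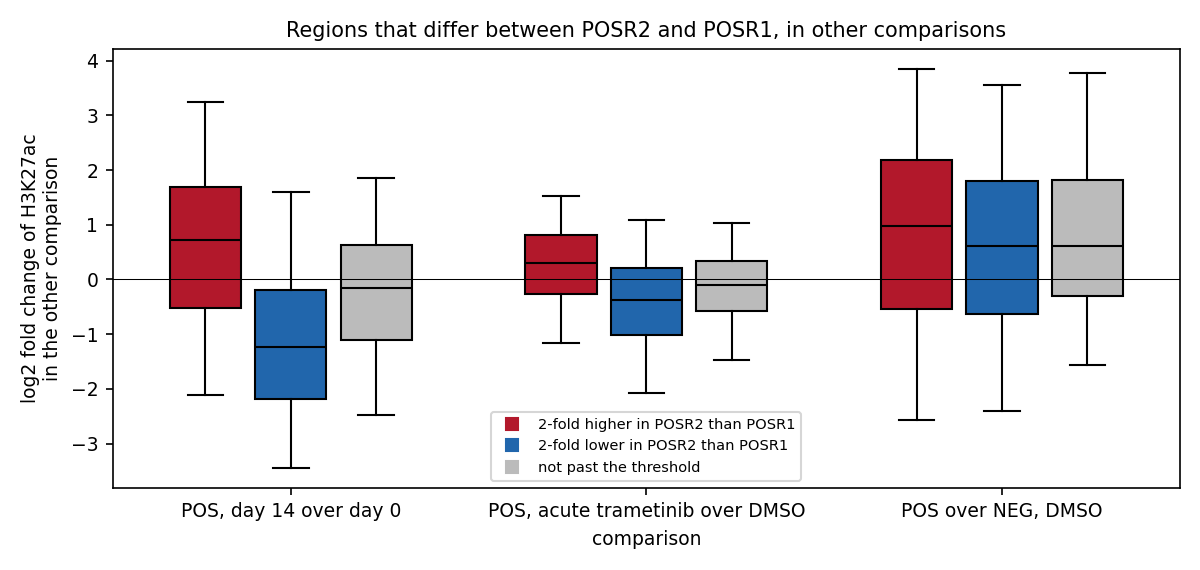
Log2 fold change of H3K27ac in 3 other comparisons (POS day 14 over day 0, POS acute trametinib over DMSO, POS over NEG under DMSO) at paired regions that were 2-fold higher in POSR2 than POSR1, 2-fold lower, or not past the threshold. Boxes give the median and quartiles over regions and whiskers the 5th and 95th percentiles. The median at day 14 is 0.72 for regions 2-fold higher in POSR2 and -1.23 for those 2-fold lower, and the 3 boxes of POS over NEG have medians between 0.61 and 0.97.

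JUNB, the AP-1 subunit, was profiled in POS and NEG under DMSO and not in POSR2 or POSR1. Regions 2-fold higher in POSR2 held a JUNB site in 65.0% of cases (95% Clopper-Pearson interval 63.7 to 66.3), those 2-fold lower in 73.7% (72.3 to 75.0), and all tested regions in 76.7%. The share with a site depended on level, since 52.0% of all tested regions had one in the weakest level class, 81.0% in the middle class and 93.4% in the strongest. Regions 2-fold higher in POSR2 had 48.1%, 75.1% and 89.4% in these classes, below the share of all tested regions in each. Regions 2-fold lower in POSR2 had 56.0%, 80.6% and 92.0%. These intervals treat regions as independent, which neighbouring regions are not.

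The classes were also set beside the direction of the JUNB sites, a description with no test. In the regions 2-fold higher in POSR2 that held a site, the site was at least 2-fold stronger in POS than in NEG in 40.8% and at least 2-fold stronger in NEG in 26.4%. In regions 2-fold lower in POSR2 these shares were 43.4% and 14.9%, and over all tested regions with a site 37.8% and 13.9%. These shares count the site of highest level in each region where it was called and at least 2-fold different. By comparison, in the JUNB table as a whole the calls at any size were 28.5% higher in POS and 29.4% lower, which is another threshold. Of the 24 named regions, 4 of the 12 gains and 11 of the 12 losses held a JUNB site. Over all tested regions the share with a site was 76.7%, with 81.0% in the middle level class and 93.4% in the strongest. JUNB was profiled in POS and NEG only, and most of the named gains were weak in POS. Whether this bears on their count was not tested.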

How the data were processed

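Tools listed in the submitters' processing notes are MACS2, DESeq2, featureCounts, STAR 2.5.2b and cutadapt 1.12, with hg19 as the build, without their roles or settings. Raw read counts per region and library were deposited by the authors, with one union of MACS2 regions per table. The H3K27ac regions are 1001 bases wide. Whether starts count from 0 or 1 is not given. Libraries were amplified by PCR, per the labels' protocols.

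Samples were grouped by their titles, and every count column was mapped to a sample. POSR2 was compared with POSR1 with edgeR 4.0.16 in R 4.3.3, with trimmed-mean factors between 0.94 and 1.12, the default filter at a minimum count of 10, and Benjamini-Hochberg adjustment at 0.05. POS stayed in the fit as a further group. CPM use these scaled library sizes. Counts of tested regions were summed in windows of 5 Mb and by chromosome and tested with the same library sizes. The other tables were fitted separately. A JUNB site was assigned to a region holding at least 50% of it. The region test of POSR2 against POSR1 was tried on simulated counts, which did not cover the sums by window and chromosome.

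Named regions passed the test, had at least the median level and no overlap between POSR2 and POSR1, and were the 12 with the largest change in each direction, at least 500 kb apart. The 6 windows of largest change and the 5 longest runs in each direction were also named, and any chromosome that passed. The populations compared, the lists and the rules were chosen with earlier results of these data known. The gene table held here is of another build, so genes and sequences are not reported. Alternatives used DESeq2 1.42.0, other scalings, filters, windows and overlaps, a replicate block, and each library left out. Input libraries were not used here.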

Additional observations from a re-analysis of the deposited data

How the results depend on the processing

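All 24 named regions and all 12 named windows kept their direction and their side of the threshold under every alternative computed for them, and the median log2 fold change of all regions stayed between -0.02 and 0.05. Leaving out each POSR library in turn gave 7627 to 8658 regions higher in POSR2 and 6899 to 7684 lower, 4549 to 5437 at least 2-fold higher and 3785 to 3981 at least 2-fold lower. It gave 16 to 20 windows higher and 38 to 71 lower, and 0 chromosomes higher and 0 to 1 lower. DESeq2 called 7338 regions higher and 7381 lower. The replicate numbers were not taken to pair the POSR2 and POSR1 libraries, whose replicate deviations correlated at 0.09 over 2 pairs. With the replicate block, 9843 regions were higher and 8648 lower, 19 windows were higher and 44 lower, and 0 chromosomes were called, chromosome 14 having a log2 fold change of -0.47 and an adjusted p of 0.126 with this block.

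Counts over windows and chromosomes depended most on the settings. RLE size factors gave 28 windows higher. Scaling by total counts gave 235 windows higher and 192 lower, and 14 chromosomes higher and 6 lower. The fit on the 4 POSR libraries gave 149 windows higher and 223 lower, and 3 chromosomes higher and 5 lower. A minimum count of 30 gave 155 windows lower and 3 chromosomes lower. Windows of 2 Mb gave 206 higher and 307 lower of 1352, and windows of 10 Mb gave 8 and 38 of 305. The cause was not tested, except that other window sizes change how many windows are tested. Chromosome 14 was lower in POSR2 under every alternative, at log2 fold changes between -0.50 and -0.42, with adjusted p-values between 8.75e-35 and 0.129.

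With an overlap of 80% required, fewer regions were paired, and the shares called higher and lower in POS over NEG were 59.5% and 23.5% for regions 2-fold higher in POSR2 and 54.8% and 24.0% for those 2-fold lower. For 24 hours of trametinib they were 40.0% and 20.2%, and 15.3% and 49.2%. Counting any overlap with a JUNB site gave 66.4% and 75.6%. Leaving out chromosome 14, an alternative chosen after seeing the data, moved none of these shares by more than the counting error.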
